A study of Mus musculus with 45 samples.

Results

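Messenger RNA levels of 5 transcription factors, Batf, Batf2, Batf3, Cebpd and Cebpe, were followed in 3 myeloid cell populations of the mouse lung before and after lipopolysaccharide (LPS), the bacterial product sensed through TLR4. They were taken by name from the 23594 gene rows of the series, and they were chosen because their levels had been seen to vary in these same libraries, so their values are given as a description with no test. The populations, all purified by flow cytometry from C57BL/6J lungs, are labelled inflammatory monocytes (iMo) and macrophages of 2 kinds, interstitial (IM) and alveolar (AM). Tissue was taken 2, 6 and 20h after intraperitoneal (ip) LPS, and the 0h libraries carry no treatment label. There were 27 usable libraries in 12 groups. Each iMo and IM group had 2, while AM had 4 before LPS, 3 at 6h and 2 at each other time. The labels give no dose and do not say whether the libraries of a group came from separate animals, so errors and p-values measure only the spread between these samples, which may be technical.

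BATF proteins are small leucine zipper factors of the AP-1 superfamily that lack a domain for activating transcription; they pair with JUN proteins and, at composite DNA elements, act together with IRF4 or IRF8. BATF is best known from T helper cells and dendritic cells, BATF3 from the development of cross-presenting dendritic cells, and BATF2 as a gene induced by interferon that acts with IRF1 in macrophages. C/EBP proteins are leucine zipper factors of myeloid cells: C/EBPδ is an acute-phase factor that prolongs macrophage responses to LPS, and C/EBPε drives the late stages of granulocyte maturation, including the genes of specific granules.

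The values are in TPM, a unit of transcript abundance; they are scaled per transcript length and keep no read depth, so that precision was judged from the replicates, whose log2 values correlated at a Pearson r of 0.936 to 0.981. Row names did not match the values in the 18 libraries of intranasal LPS, and those were left out. Library titles end in a code of digits, mostly with a letter before it, here used as the library's name. All IM and iMo libraries of 0h share the code of A171227 and none of their ip libraries has it, so for IM and iMo the time after LPS and the title code cannot be told apart; the code written without a letter joins 0h to ip in AM alone. The summed level of 8 alveolar macrophage markers was 1362 to 4459.5 TPM in AM libraries, against 36.4 to 263 TPM in all others. The labelled identity of IM did not hold as well. The sum of 10 neutrophil markers was 11209 to 54992 TPM in IM libraries. It was 109 to 2797 TPM in iMo and 18.3 to 401 TPM in AM libraries. S100a8 and S100a9 made up most of the IM sums, at 10320 and 10730 TPM in A171227 of 0h. Elane, Mpo and Prtn3 of this list did not share that order. At 6h Elane stood at 25.0 and 41.9 TPM in iMo, against 2.55 and 2.20 TPM in IM. Prtn3 stood at 44.7 and 33.4 TPM in iMo at 6h, against 3.57 and 5.22 TPM in IM. Ly6g, which defines neutrophils, was present in all 8 IM libraries at 4.48 to 63.6 TPM, and reached 5.46 TPM in iMo. The sum of 8 interstitial macrophage markers was 3733 to 4406 TPM in IM libraries at 0h, 102 to 247 TPM at 2 and 6h and 1738 to 1850.05 TPM at 20h. It was also 1557 to 1713 TPM in iMo at 20h and 887 TPM in the AM 20h library A161219, against 8.10 TPM in the other AM 20h library. The sum of 7 classical monocyte markers was 3092 to 6205 TPM in IM at 0h, against 8231 to 12800 TPM in iMo. At 2h it was 3064 to 6200 TPM in IM and 4818 to 6733 TPM in iMo. In IM at 0h, 4 endothelial markers summed to 329 to 398 TPM and 4 lung epithelial markers to 254 to 588 TPM. At 2h these sums were 6.62 to 14.9 and 6.30 to 50.6 TPM. IM, iMo and AM below therefore mean the labels. In bulk libraries, fewer cells of a type and less RNA per cell cannot be told apart.

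Of 8937 genes that reached 5 TPM in 2 libraries or more, all 5 factors included, limma called 48.7, 25.5 and 12.4% in IM at 2, 6 and 20h against 0h (adjusted p under 0.05). It called 32.4, 29.1 and 22.2% in iMo and 0.134, 1.30 and 0.112% in AM at the same times. At 0h it called 26.0% between IM and AM, 29.6% between iMo and AM and 7.06% between iMo and IM. Over the 9 comparisons of an ip time with its own 0h, libraries did not overlap in 7 for Batf, 7 for Batf3, 5 for Cebpd, 3 for Batf2 and 3 for Cebpe. Nothing is read from these counts, since the genes were chosen on these values. The share of all genes without overlap is not given, and the limma percentages follow another rule. The median log2 difference of all tested genes was -0.79, -0.53 and -0.09 in IM at 2, 6 and 20h, -0.42, -0.48 and -0.31 in iMo, and -0.03, -0.16 and -0.31 in AM. Where a difference is called relative below, this median has been subtracted.

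Batf was the factor with the highest level after LPS, and it was highest in IM. In IM it stood at 20.3 and 16.3 TPM at 0h, at 228 and 481 TPM at 2h, at 98.6 and 320.0 TPM at 6h and at 96.8 and 124 TPM at 20h. Every IM library after LPS lay above every IM library of 0h, and the 0h level of IM was the lowest of all 12 groups. In iMo it stood at 40.2 and 36.8 TPM at 0h, 127 and 257 TPM at 2h, 101 and 86.5 TPM at 6h and 59.7 and 68.4 TPM at 20h. The iMo libraries also lay above 0h at each time, and the libraries of the 4 iMo times did not overlap with each other.

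In AM, Batf stood at 31.6, 58.0, 49.9 and 49.1 TPM at 0h, 43.8 and 84.4 TPM at 2h, 36.3, 53.2 and 57.7 TPM at 6h and 23.5 and 20.9 TPM at 20h. The AM libraries of 2 and 6h overlapped with those of 0h, and those of 20h lay below them. The mean of IM at 2h, 354 ± 179 TPM, was 19.4 times the mean of IM at 0h, 18.3 ± 2.83 TPM (SD, n = 2 each). The log2(TPM+1) difference from 0h in IM was 4.11, 3.22 and 2.52 at 2, 6 and 20h (SE 0.485), or 4.91, 3.75 and 2.62 relative to all genes. In iMo it was 2.20, 1.26 and 0.72 (SE 0.485), and in AM 0.39, 0.06 and -1.02 (SE 0.420, 0.370 and 0.420). The AM value at 20h was -0.94 without the library that held interstitial macrophage markers. In the order of the 12 group means, 6 of the 11 pairs of neighbours overlapped, the highest pair (IM at 2h and at 6h) among them. At 0h the order was the reverse of that after LPS: by group means, the log2 difference of IM from AM was -1.29 (SE 0.420), that of iMo from IM 1.04 (SE 0.485), and that of iMo from AM -0.25 (SE 0.420), with iMo and AM libraries overlapping.

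**Figure D1:**
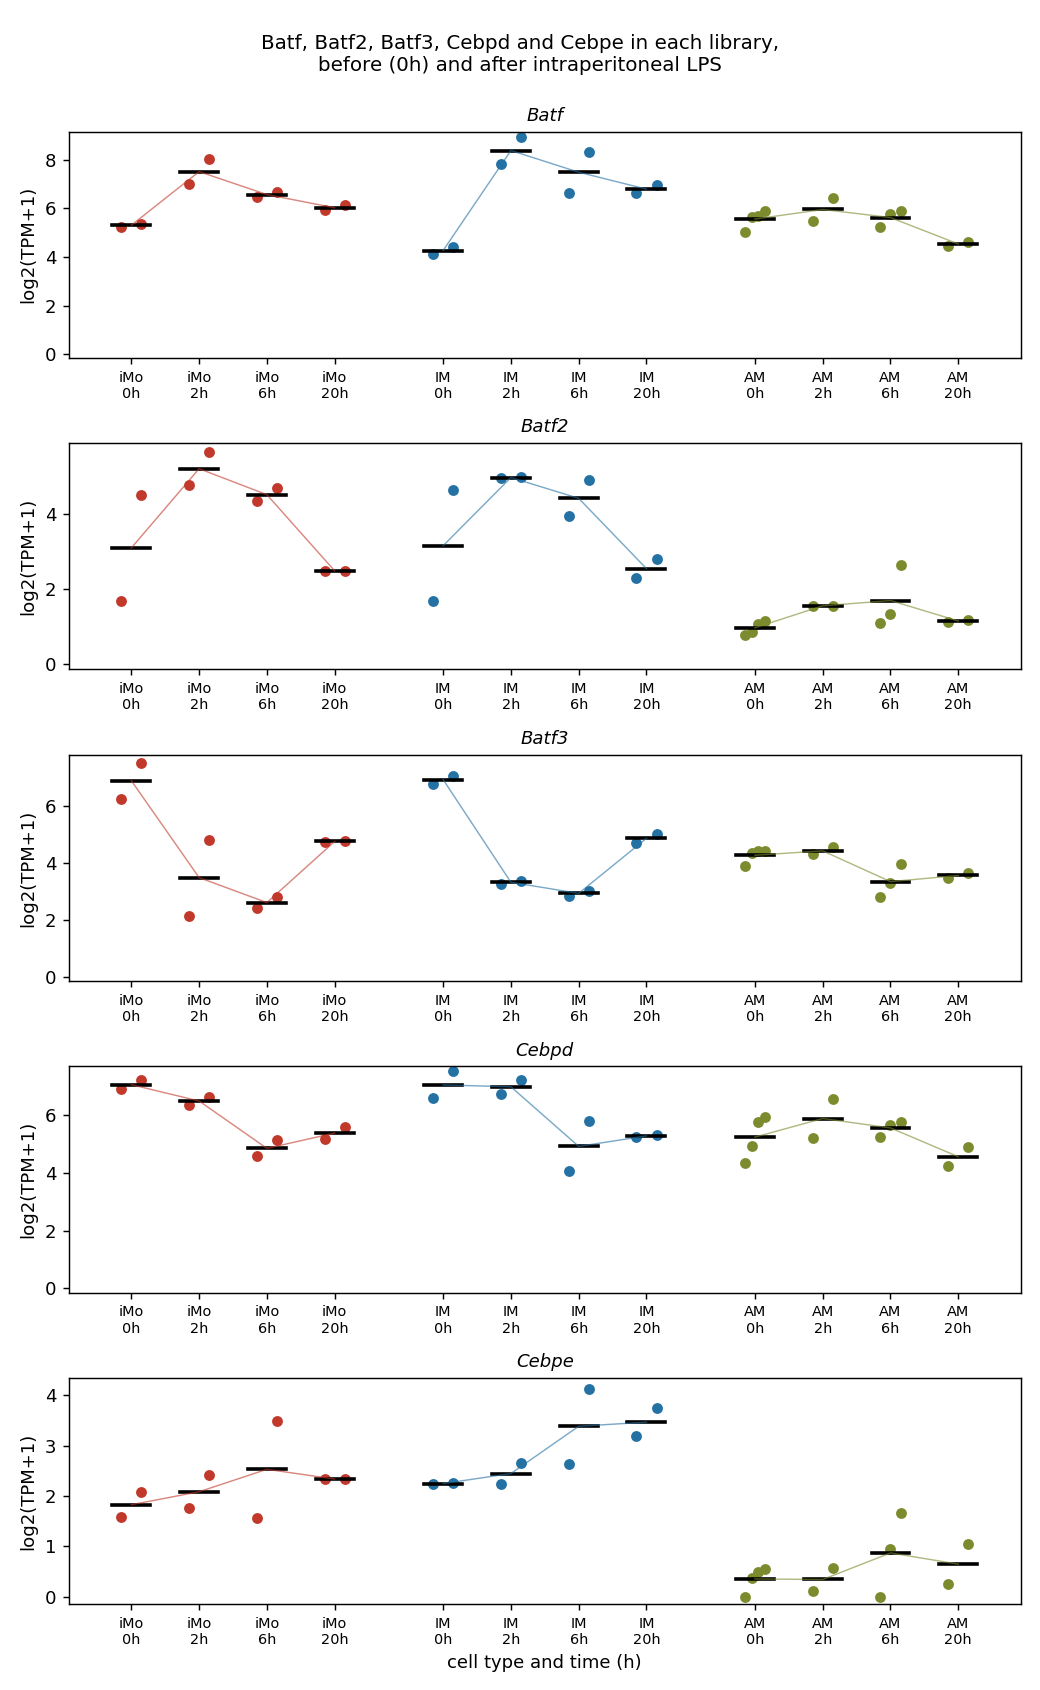
Level of each factor as log2(TPM+1) in every library (points) with the group mean (black bar), by cell type (iMo, IM, AM from left to right) and hours after ip LPS. Batf stood above and Batf3 below the 0h libraries at every time in IM and iMo, while the group means of Batf2 and Cebpe were lowest in AM.

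Batf3 ran the other way. In IM it stood at 109 and 132 TPM at 0h, 8.65 and 9.26 TPM at 2h, 6.12 and 7.11 TPM at 6h and 24.9 and 31.5 TPM at 20h. In iMo it stood at 74.6 and 182 TPM at 0h, 27.1 and 3.42 TPM at 2h, 5.97 and 4.29 TPM at 6h and 26.4 and 25.3 TPM at 20h. All IM and iMo libraries after LPS lay below those of 0h, and at 20h the libraries of both populations lay above those of 6h without reaching the 0h level.

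AM held less Batf3 at 0h, at 13.8, 20.3, 20.4 and 19.2 TPM, and stood at 18.6 and 22.2 TPM at 2h, 5.90, 8.74 and 14.4 TPM at 6h and 11.5 and 9.98 TPM at 20h. Here the 20h libraries lay below all 0h libraries, while those of 2 and 6h overlapped with them. The log2 difference from 0h in IM was -3.60, -3.99 and -2.06 at 2, 6 and 20h (SE 0.545), which is -2.81, -3.46 and -1.97 relative to all genes. In iMo it was -3.40, -4.27 and -2.13 (SE 0.545). The iMo value at 2h rested on replicates that were far apart, and was -4.73 without A161219 and -2.06 without B161219. At 0h Batf3 was 2.65 higher in IM and 2.61 higher in iMo than in AM (log2, SE 0.472 each). The highest group mean, 128 TPM in iMo at 0h, was 25.0 times the lowest, 5.13 TPM in iMo at 6h, and 7 of the 11 neighbouring groups overlapped.

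Markers of dendritic cells, the population for which BATF3 is best known, were followed beside it. The sum of the 8 markers listed was 39.8 to 68.5 TPM in IM at 0h, 18.4 to 42.8 TPM at 2h, 8.92 to 13.2 TPM at 6h and 13.3 to 17.6 TPM at 20h. In iMo it was 34.0 to 79.9, 18.4 to 42.9, 10.5 to 12.7 and 11.03 to 14.3 TPM at these times. Most of the 0h sum came from Cd209a, a lectin of monocyte-derived dendritic cells, which stood at 49.0 and 21.1 TPM in IM and at 63.2 and 20.4 TPM in iMo. Xcr1 and Clec9a, which define cross-presenting dendritic cells, did not exceed 1.74 and 2.86 TPM in any library. The sums of 0h lay above those of 6 and 20h in both populations and overlapped with those of 2h, an order that rested largely on Cd209a. Wdfy4 of this list was not lower at 20h than at 0h. It stood at 8.46 and 8.17 TPM in IM at 0h, 5.21 and 3.87 TPM at 6h and 8.725 and 10.9 TPM at 20h. The iMo libraries held 10.4 and 7.94 TPM at 0h, 7.46 and 4.92 TPM at 6h and 9.075 and 12.5 TPM at 20h. AM libraries of 0h, where Batf3 was lower, held 19.6 to 27.6 TPM of Wdfy4. The part of dendritic cells in the Batf3 levels was not tested.

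As TPM is scaled per length, the 2 genes can be set against each other within a library. The ratio of Batf to Batf3 was 0.187 and 0.124 in IM at 0h, 26.3 and 51.9 at 2h, 16.1 and 45.0 at 6h and 3.89 and 3.93 at 20h. In iMo it was 0.540 and 0.203 at 0h, 4.69 and 75.0 at 2h, 17.0 and 20.1 at 6h and 2.26 and 2.71 at 20h. Batf3 exceeded Batf in the 4 libraries of IM and iMo at 0h and in no other library. In AM the ratio was 2.30 to 2.87 at 0h, 2.35 and 3.80 at 2h, 4.02 to 6.16 at 6h and 2.04 and 2.09 at 20h, so that the 6h libraries lay above all other AM libraries. Across the 12 group means the 2 genes correlated at r = -0.57, against 0.71 for Batf with Batf2 and -0.24 for Batf2 with Batf3; the points share 3 cell populations and the 0h libraries.

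**Figure D2:**
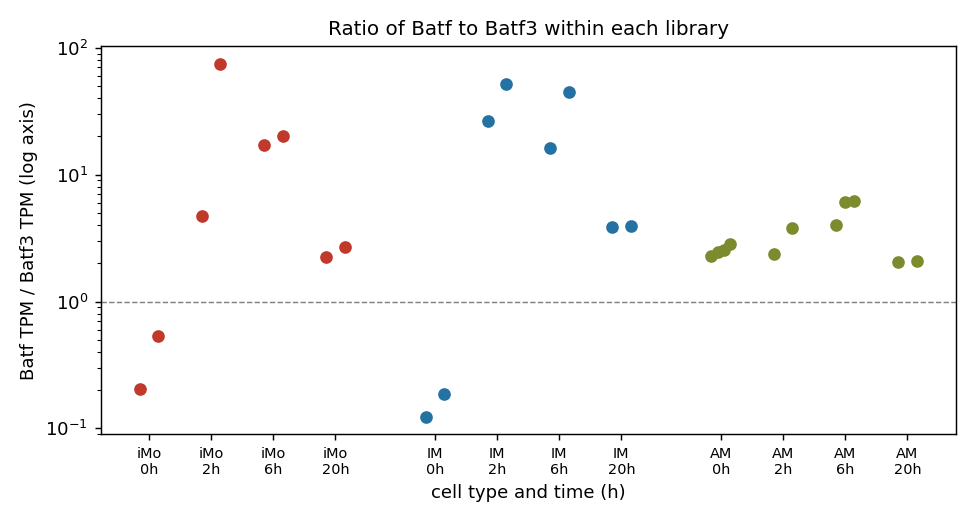
Ratio of Batf TPM to Batf3 TPM in each library (points, log axis) by cell type and hours after ip LPS; the dashed line marks equal levels. The 4 libraries of iMo and IM at 0h lie below the line and all others above it.

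Batf lies on chr12:85686720-85709087 and Batf3 on chr1:191098414-191108943, both on the forward strand of GRCm38.p6 in the RefSeq annotation. The 250 bases before each RefSeq start are shown for these 2 genes because promoter sequences were at hand for no other factor. They were scanned on both strands for 5 motifs: AP-1 (TGANTCA), C/EBP (TTGCNNAA), the STAT motif GAS (TTCNNNGAA), the interferon element ISRE (GAAANNGAA) and NF-kB (GGANTTTCC). Of 32851 windows of this length, 6.75% held the AP-1, 9.56% the C/EBP, 7.02% the GAS, 7.13% the ISRE and 1.07% the NF-kB motif. Capitals mark a match.
Batf, chr12:85686470-85686719: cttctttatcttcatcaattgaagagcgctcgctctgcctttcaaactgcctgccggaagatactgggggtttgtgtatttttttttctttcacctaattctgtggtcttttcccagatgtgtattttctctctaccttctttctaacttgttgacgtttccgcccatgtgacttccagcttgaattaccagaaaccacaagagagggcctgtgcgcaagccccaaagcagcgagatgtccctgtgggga
Batf3, chr1:191098164-191098413: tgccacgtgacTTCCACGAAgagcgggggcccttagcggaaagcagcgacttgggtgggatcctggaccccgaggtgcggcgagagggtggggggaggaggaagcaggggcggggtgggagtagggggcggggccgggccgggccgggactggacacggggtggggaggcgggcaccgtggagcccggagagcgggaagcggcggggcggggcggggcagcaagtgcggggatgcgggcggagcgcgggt
The Batf window held none of these letters, and the Batf3 window held 1 match, to GAS, at bases -239 to -231 from the start. The windows also differed in composition, with 46.4% G and C for Batf and 76.0% for Batf3, against a median of 52.4% over all windows. The matches are descriptions of the letters and say nothing of binding.

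Batf2 was highest in IM and iMo at 2h and low in AM. In AM it stood at 0.811, 1.11, 0.720 and 1.23 TPM at 0h, 1.95 and 1.93 TPM at 2h, 1.14, 5.24 and 1.54 TPM at 6h and 1.16 and 1.27 TPM at 20h. In IM it stood at 2.20 and 24.1 TPM at 0h, 31.1 and 30.4 TPM at 2h, 14.5 and 29.1 TPM at 6h and 6.03 and 3.88 TPM at 20h. In iMo it stood at 2.21 and 22.0 TPM at 0h, 26.6 and 49.6 TPM at 2h, 19.5 and 25.0 TPM at 6h and 4.60 and 4.65 TPM at 20h. Libraries of 2h lay above those of 0h in both populations, but those of 6 and 20h overlapped with 0h, and the 0h replicates were far apart in both. Batf2 lies on chr19:6164397-6172476 and passed 5 TPM in 12 of the 27 libraries.

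The log2 difference from 0h was 1.82, 1.27 and -0.61 in IM at 2, 6 and 20h (SE 0.722), and 2.12, 1.43 and -0.61 in iMo (SE 0.722). At 20h its sign turned on a single library: without B171227 of 0h it was 0.87 in IM and 0.81 in iMo. At 6h in IM it was -0.22 without A171227 of 0h, and at 20h in iMo it was 0.14 when TPM were rescaled without Rn45s and Lars2. The 2h difference kept its sign under each setting checked, which did not include array weights and no filter. Its size depended on A171227 of 0h. The other 0h library, B171227, stood at a log2(TPM+1) of 4.65 in IM and 4.52 in iMo. The 2h means were 4.99 in IM and 5.22 in iMo, so that without A171227 the difference was below its SE of 0.722. The highest group mean was 38.1 TPM in iMo at 2h, 39.5 times the lowest, 0.966 TPM in AM at 0h, and 9 of the 11 neighbouring groups overlapped. In AM the differences were 0.59, 0.73 and 0.18 (SE 0.625, 0.551 and 0.625).

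The 0h replicates of IM and iMo were set side by side to see what else differed with Batf2; the genes named in this comparison were chosen after their values were seen. In library B171227 Batf2 exceeded library A171227 by 2.98 in IM and 2.84 in iMo on the log2 scale, rank 15 and rank 26 of 8937 genes. The genes with the largest joint difference were Iigp1 and Gbp4, interferon-inducible GTPases, and Serpina3g, a serine protease inhibitor. Gbp2 stood at 299.8 TPM in B171227 and 24.9 TPM in A171227 of IM, and at 330.3 and 18.3 TPM in those of iMo. The chemokine Cxcl10 stood at 68.05 and 6.95 TPM in IM and at 102 and 6.16 TPM in iMo, and Irf1, with which BATF2 acts, at 233 and 51.9 TPM in IM and 245 and 36.3 TPM in iMo. Of 48 genes at least 2 higher (log2) in B171227 of IM and 64 in that of iMo, 33 were in both, 68.8% of the IM list and 51.6% of the iMo list. Other interferon-inducible genes differed less, such as Rsad2, by 0.63 in IM and 1.28 in iMo, and Irf7, by 1.16 and 0.64 (log2). Batf was lower in B171227 in IM (16.3 against 20.3 TPM) and in iMo (36.8 against 40.2 TPM). AM has no library of that name at 0h.

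**Figure D3:**
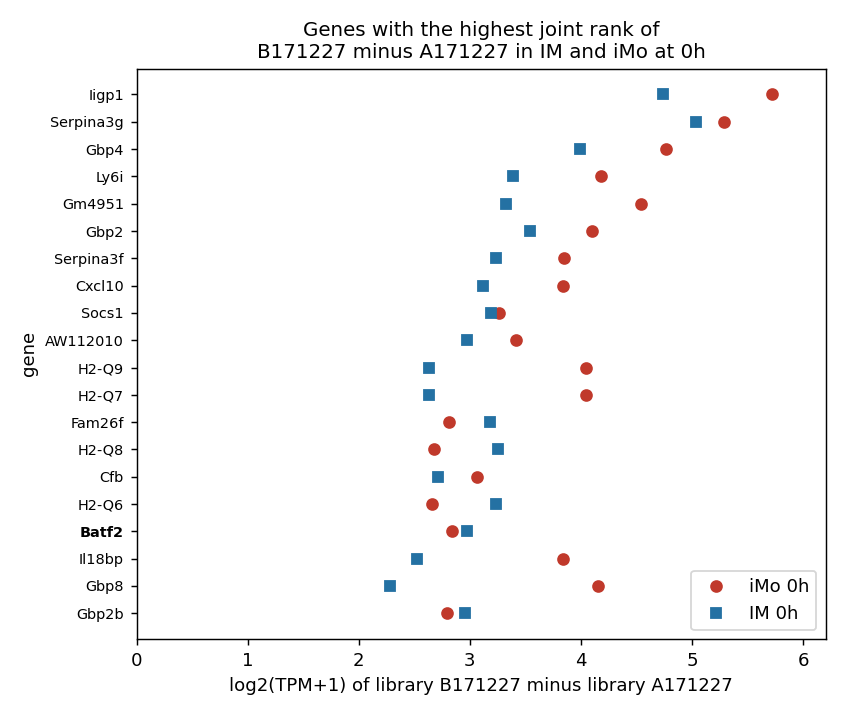
Difference in log2(TPM+1) between library B171227 and library A171227 at 0h for the 20 genes with the highest joint rank, in iMo (circles) and IM (squares). Batf2, in bold, lies at 2.84 in iMo and 2.98 in IM, among guanylate-binding and other interferon-inducible genes.

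Cebpd was high before LPS and low from 6h on in IM and iMo. In IM it stood at 183 and 95.0 TPM at 0h, 107 and 149 TPM at 2h, 15.7 and 54.2 TPM at 6h and 37.4 and 38.7 TPM at 20h. In iMo it stood at 148 and 119 TPM at 0h, 81.0 and 98.5 TPM at 2h, 22.8 and 34.2 TPM at 6h and 47.8 and 34.9 TPM at 20h. In both populations the libraries of 6 and 20h lay below all libraries of 0h and 2h, and at 2h those of iMo lay below 0h while those of IM overlapped with it. In AM it stood at 19.4, 59.8, 29.4 and 54.1 TPM at 0h, 35.8 and 94.6 TPM at 2h, 49.6, 37.0 and 54.0 TPM at 6h and 28.8 and 17.8 TPM at 20h. All AM times overlapped with 0h. Cebpd lies on chr16:15887286-15889545.

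The log2 difference of Cebpd from 0h was -2.13 and -1.77 in IM at 6 and 20h (SE 0.549), or -1.60 and -1.67 relative to all genes. In iMo it was -2.21 and -1.68 (SE 0.549), or -1.73 and -1.37 relative to all genes. At 2h it was -0.06 in IM and -0.57 in iMo, and took the other sign in IM under quantile normalization (0.09), rescaling (0.17) and a covariate for the title code (0.87), and in iMo with that covariate (0.12). The IM value at 6h was -1.27 without the library that has no letter and -2.99 without A161219. At 0h Cebpd was 1.81 higher in IM and 1.82 higher in iMo than in AM (log2, SE 0.475 each). Group means spanned a ratio of 5.96, the smallest of the 5 factors, and 10 of the 11 neighbouring groups overlapped.

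Cebpe reached 5 TPM in 6 libraries, all of IM or iMo after LPS. In IM it stood at 3.70 and 3.80 TPM at 0h, 3.72 and 5.30 TPM at 2h, 5.21 and 16.6 TPM at 6h and 12.5 and 8.08 TPM at 20h. In iMo it stood at 1.99 and 3.22 TPM at 0h, 2.39 and 4.32 TPM at 2h, 10.3 and 1.97 TPM at 6h and 4.05 and 4.06 TPM at 20h. The IM libraries of 6 and 20h lay above those of 0h, as did the iMo libraries of 20h. AM libraries held 0 to 2.17 TPM, with 2 of 11 listed at 0. The log2 difference from 0h was 1.14 and 1.22 in IM at 6 and 20h (SE 0.546), and 0.70 and 0.51 in iMo (SE 0.546). The iMo value at 6h was -0.26 without library A161219, and that at 20h was -0.09 with a covariate for the title code. At 0h Cebpe was 1.89 higher in IM and 1.47 higher in iMo than in AM (log2, SE 0.473 each). Cebpe lies on chr14:54710363-54712174.

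Transcripts of granulocytes were followed beside Cebpe. Camp, the cathelicidin of specific granules, was listed at 0 in both IM libraries of 0h and stood at 268 and 234 TPM at 2h, 140.5 and 331 TPM at 6h and 31.1 and 78.9 TPM at 20h. Ngp, another specific granule protein, stood at 1.32 and 2.03 TPM in IM at 0h, 516 and 647 TPM at 2h, 604 and 1157 TPM at 6h and 556 and 566 TPM at 20h. Ltf stood at 1.40 and 0.215 TPM in IM at 0h and at 88.05 and 38.1 TPM at 2h. Mmp8 and Lcn2 were present in IM at 0h, at 47.4 and 34.1 TPM and at 223 and 92.3 TPM. At 2h Mmp8 stood at 97.7 and 178.6 TPM in IM, and Lcn2 at 6606 and 13030 TPM. The Cebpe libraries of IM at 2h overlapped with those of 0h. In iMo Mmp8 went the other way, at 124 and 57.5 TPM at 0h and 45.3 and 42.8 TPM at 2h. In iMo at 6h the sum of the 5 granule genes was 6213 TPM in A161219, where Cebpe stood at 10.3 TPM, and 4372 TPM in B161219, where Cebpe stood at 1.97 TPM. Lcn2, which is also an acute-phase gene induced by LPS, made up most of these sums, at 5743 and 3958 TPM, while Ngp stood at 228 and 229.7 TPM and Camp at 172 and 119 TPM. The IM 6h library A161219 had the highest Cebpe, 16.6 TPM, and the highest neutrophil sum, 54992 TPM. Other replicates of IM did not share this order. At 20h A161219 had more Cebpe than B161219, at 12.5 against 8.08 TPM. Its neutrophil sum was lower, at 27523 against 34176 TPM, as was its Camp, while its Mmp8 was higher. At 2h the library without a letter had less Cebpe, Ngp, Mmp8 and Lcn2 than A161219, but more Camp and Ltf. The part of granulocytes in the Cebpe level was not tested.

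**Figure D4:**
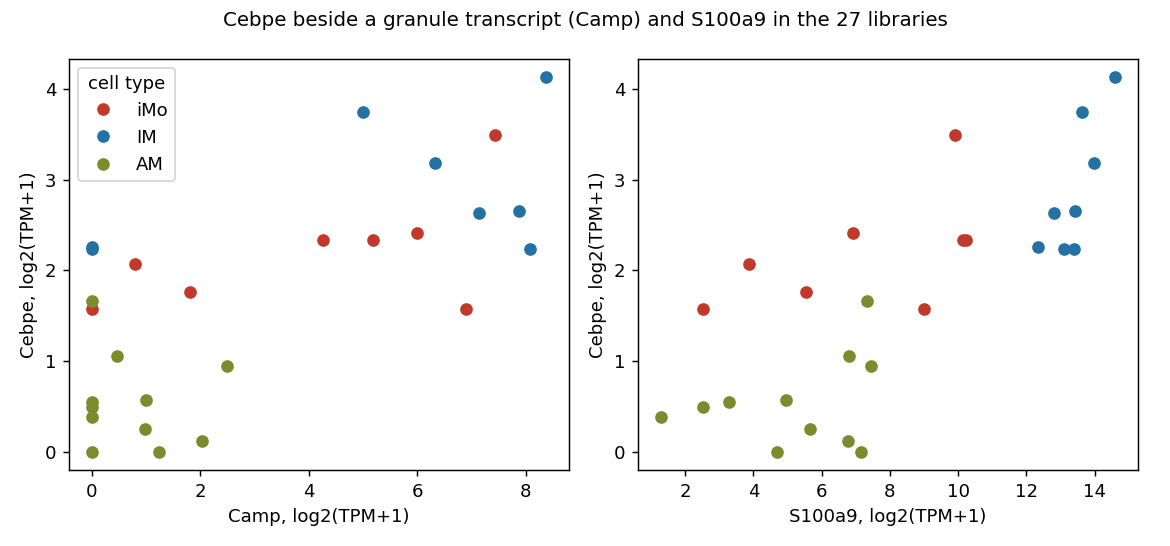
Cebpe against Camp (left) and against S100a9 (right), all as log2(TPM+1), in the 27 libraries (points) of iMo, IM and AM. The IM library of 6h with the highest Cebpe, 16.6 TPM, also has the highest Camp, 331 TPM. In IM at 2 and 20h the library with more Cebpe has less Camp.

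Replicates of IM at 2 and 6h shared an order: the library without a letter was below A161219 for Batf, Batf3, Cebpd and Cebpe at both times, and for Batf2 at 6h. The ribosomal RNA precursor Rn45s held a median of 29.6% of the TPM in libraries without a letter, 11.94% in those with the code of A161219 and 6.27% in those with the code of A171227, and its part in this order was not tested. In AM there is a library without a letter at every time. In these 4 Batf stood at 31.6, 43.8, 36.3 and 23.5 TPM at 0, 2, 6 and 20h, Batf3 at 13.8, 18.6, 5.90 and 11.5 TPM, and Cebpd at 19.4, 35.8, 49.6 and 28.8 TPM. Among them Batf was lowest at 20h and Batf3 at 6h, each from 1 library per time and with no replicate check.

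Genes with the most similar pattern were ranked for each factor by the Pearson r of log2(TPM+1) over the 12 group means, among 6340 genes that reached a mean of 10 TPM in a group. Batf was most like Pfkfb3, a regulator of glycolysis (r = 0.94 over 12 groups, 0.92 over 27 libraries), and the cytokine Tnf (0.94 and 0.90), followed by Fpr2, Dgat2 and Psd4. Tnf averaged 4.41 TPM in IM at 0h, 119.5 TPM at 2h, 70.5 TPM at 6h and 27.3 TPM at 20h, so that the order of its IM groups was that of Batf. The order differed in iMo, where Tnf averaged 12.5 TPM at 6h and 15.7 TPM at 20h, and Batf 93.9 and 64.0 TPM. It differed also in AM, where Tnf was highest at 0h, 8.92 TPM, and Batf at 2h, 64.1 TPM. Batf2 was most like Socs1, an inhibitor of cytokine signalling (0.99 and 0.97), followed by Nlrc5, a regulator of MHC class I genes, Tgtp2, Ifi205 and Cd40. Batf3 was most like Rgs10, a regulator of G protein signalling (0.97 over groups and 0.90 over libraries), followed by Mplkip, Gtf2a2, Gt(ROSA)26Sor and Tyrobp. Rgs10 averaged 199 TPM in IM at 0h, 18.3 TPM at 2h, 20.2 TPM at 6h and 56.3 TPM at 20h. Cebpd had the weakest likeness, with Sirpb1b at the top (0.92 and 0.86), then Cutc, Snw1, Coq2 and Svbp. Cebpe was most like Ripor2 (0.98 and 0.90), then the interferon-inducible Ifitm1, Itprip, Cpne2 and Osgin1. All these values share the same libraries and 3 populations.

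Among 17 relatives and partners listed beside the 5 factors, 15 passed the filter on low levels; the exceptions were Irf4, which reached 5.68 TPM in iMo at 0h, and Fosl1, which did not exceed 3.48 TPM. The list held C/EBP relatives, JUN and IRF partners of BATF proteins, and other AP-1 and ATF factors, and unlike the 5 factors these were tested with limma over all 8937 genes. Against 0h, IM had 6 called at 2h, all lower, 0 at 6h and 2 at 20h, both lower, where 48.7, 25.5 and 12.4% of all genes were called. Of the 4356 genes called in IM at 2h 3642 were lower, as were 2145 of the 2897 called in iMo at 2h. At 6h in IM 4 of the 15 had an unadjusted p under 0.05. In iMo 6 were called at 2h, all lower, 4 at 6h (1 higher, 3 lower) and 6 at 20h (1 higher, 5 lower), where 32.4, 29.1 and 22.2% of all genes were called. In AM limma called 0 of the 15 at 2, 6 and 20h, with 1, 2 and 1 at an unadjusted p under 0.05, where 0.134, 1.30 and 0.112% of all genes were called. The median log2 difference of the list was -0.57, -0.33 and -1.11 in IM at 2, 6 and 20h, against -0.79, -0.53 and -0.09 for all genes, and -0.82, -0.61 and -0.998 in iMo, against -0.42, -0.48 and -0.31.

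Of the C/EBP relatives, Cebpa, the factor of early myeloid commitment, fell at 2h in both populations. It stood at 3.98 and 16.45 TPM in IM at 2h, against 54.0 and 59.0 TPM at 0h (log2 difference -2.62 ± 0.612 (SE), limma adjusted p = 0.00132), and at 27.99 and 5.88 TPM in iMo at 2h, against 63.3 and 61.4 TPM at 0h (-2.17 ± 0.612, limma adjusted p = 0.00915). Cebpg, a dimer partner of other C/EBPs, and Ddit3, the stress factor CHOP, also fell at 2h in both. Cebpb, the C/EBP closest in role to Cebpd in LPS responses, was called in none of the 12 comparisons: its log2 difference from 0h was 0.61, 0.38 and -0.40 in IM (SE 0.826) and -0.11, 0.53 and -0.73 in iMo (SE 0.826). Its replicates were far apart, at 491 and 1983 TPM in IM at 2h.

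Of the partners of BATF proteins, Irf8 fell at 2h in IM, to 17.7 and 31.7 TPM, against 86.7 and 132 TPM at 0h (log2 difference -2.13 ± 0.439 (SE), limma adjusted p = 0.000457), and in iMo at 2h, to 86.9 and 45.8 TPM, against 152 and 165 TPM at 0h (-1.31 ± 0.439, limma adjusted p = 0.0249). It fell also in iMo at 20h (-1.53, limma adjusted p = 0.0153), a call that ended when TPM were rescaled without Rn45s and Lars2 (-0.75, limma adjusted p = 0.0882). Jund fell at 2h in IM (-1.75, limma adjusted p = 0.00892) and in iMo (-2.52, limma adjusted p = 0.000877). Jun, Junb and Irf1 were not called at 2h in IM or iMo. Junb stood at 300.0 and 424 TPM in IM at 2h, against 335 and 223 TPM at 0h.

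Of the other AP-1 and ATF factors, Fos stood at 219 and 173 TPM in iMo at 0h and fell at each time, to 22.4 and 20.3 TPM at 2h, 23.7 and 34.1 TPM at 6h and 16.4 and 19.7 TPM at 20h (log2 differences -3.13, -2.73 and -3.36, SE 0.565; limma adjusted p = 0.000229, 0.00102 and 0.000208). The call at 6h ended when TPM were rescaled (-1.97, limma adjusted p = 0.0508). Atf3, which restrains Toll-like receptor responses, fell in iMo at 20h to 7.39 and 3.99 TPM, against 69.7 and 95.0 TPM at 0h (-3.67 ± 0.556 (SE), limma adjusted p = 6.75e-05), and in IM at 20h to 5.13 and 4.67 TPM, against 35.9 and 48.2 TPM at 0h (-2.85 ± 0.556, limma adjusted p = 0.000828). Jdp2, an AP-1 repressor, was the exception in direction. It stood at 4.87 and 6.47 TPM in iMo at 0h. It was higher at 6h, at 36.6 and 22.6 TPM, and at 20h, at 20.8 and 28.8 TPM (2.17 and 1.95, SE 0.534, limma adjusted p = 0.00417 and 0.012). Against 0h it was not called in AM or IM. The AM libraries of 6h still lay above those of 0h, at 12.4 to 18.0 against 2.67 to 7.81 TPM (1.43 ± 0.408 (SE), limma adjusted p = 0.0992). The log2 differences in IM were 0.78 and 0.665 at 6 and 20h (SE 0.534).

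**Figure D5:**
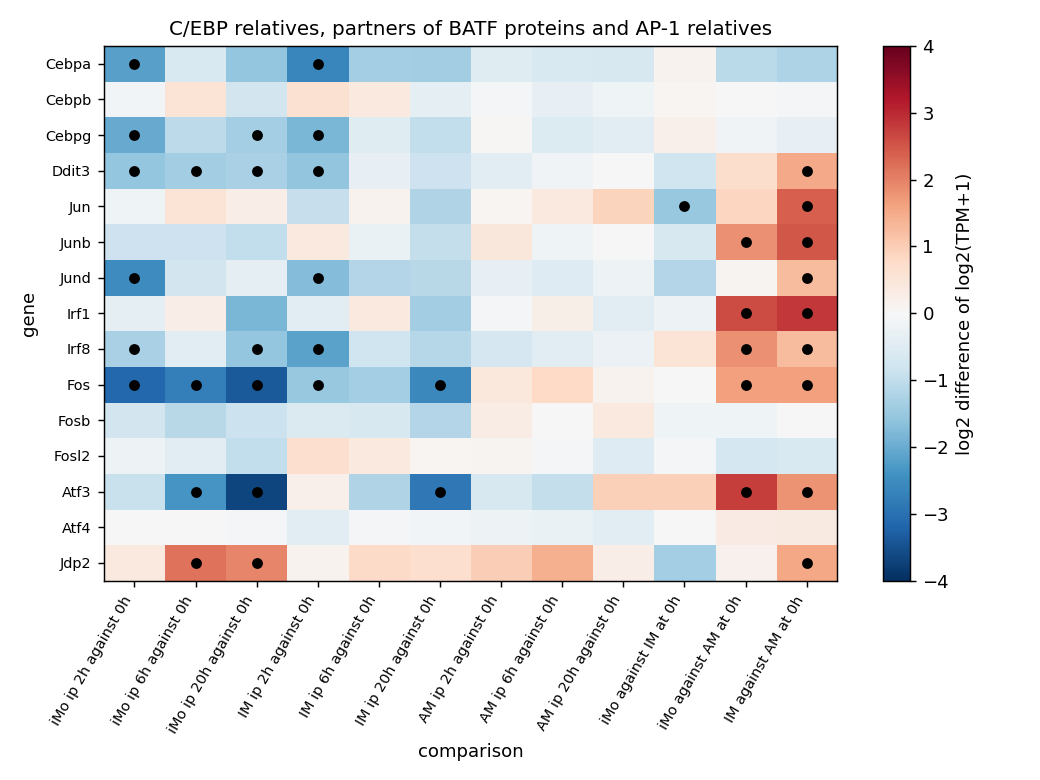
Differences in log2(TPM+1) of the 15 tested relatives and partners (rows) in 12 comparisons (columns), with the colour scale from -4 to 4; black dots mark genes called by limma. Dots in the columns of ip against 0h are on blue cells, lower after LPS, except for Jdp2 in iMo at 6 and 20h.

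At 0h, 9 of the 15 were higher in IM than in AM and 0 lower, where 26.0% of all genes were called, and 5 were higher in iMo than in AM and 0 lower, where 29.6% were. Irf1 stood at 51.9 and 233 TPM in IM and 36.3 and 245 TPM in iMo, against 7.16 to 28.5 TPM in AM (log2 differences 2.82 and 2.61, SE 0.592; limma adjusted p = 0.000622 and 0.00134). Junb stood at 335 and 223 TPM in IM and 156 and 194 TPM in iMo, against 31.6 to 61.8 TPM in AM (2.47 and 1.82, SE 0.323; limma adjusted p = 1.95e-06 and 9.18e-05). Irf8, Atf3 and Fos were called in both as well, but Fos was not under quantile normalization (limma adjusted p = 0.0637 in IM and 0.146 in iMo) or after rescaling (0.111 and 0.17). Jun, Jdp2, Ddit3 and Jund were called in IM against AM and not in iMo against AM. Between iMo and IM, where 7.06% of all genes were called, limma called Jun among the 15, at 12.9 and 22.7 TPM in iMo, against 47.5 and 55.8 TPM in IM (-1.53 ± 0.421 (SE), limma adjusted p = 0.0233). Jun too was not called under quantile normalization (limma adjusted p = 0.064) or after rescaling (0.071). Batf2, Batf3, Cebpd and Cebpe shared this order, higher in IM and iMo than in AM, and Batf did not.

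The counts of called relatives and partners depended on single libraries and on the title code. With 6 called, IM at 2h had 3 without A171227 of 0h and 3 without the letterless library of 2h, and iMo at 2h had 3 without B161219. With 6 called, iMo at 20h had 3 without B171227 of 0h, 3 without A161219 and 2 without B161219. At 0h, IM against AM had 5 without A171227 or B171227 in place of 9, iMo against AM had 3 without B171227 in place of 5, and iMo against IM had 0 without A171227 or B171227 of IM or A171227 of iMo. With the title code as a covariate, 3, 1 and 2 were called in iMo at 2, 6 and 20h, and 3 and 1 in IM at 2 and 20h.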

How the data were processed

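The deposited table gives TPM per gene, computed by the authors from low-input Smart-seq2 type libraries of polyA RNA from sorted cells, per the labels. STAR, HOMER and mm10 are named in the submitters' processing notes; their versions and the annotation: not given in the sources used here. TPM sums ran from 331473 to 551635 in the 27 libraries, and depth is not kept. The series text gives 22h for the last time and the sample labels 20h; the labels were used. Log2 values are log2(TPM+1), computed here from the deposited TPM, and understate differences of low genes. A linear model with 12 group means and a mean-variance trend was fitted by limma 3.58.1 (R 4.3.3). It covered the 8937 genes that reached 5 TPM in 2 libraries or more, with Benjamini-Hochberg adjustment within each comparison. The fit was also run on simulated data with independent normal residuals. These held no effect of the title code, so that run cannot speak to that code. The 5 factors, the gene lists and the markers were chosen with earlier results of these data known. Named genes were the 5 factors, the 5 genes most like each (gene models passed over), and the called relatives of largest difference; promoter motifs were fixed with them. No 2 columns were identical. Row names and values disagreed in the intranasal columns, where log2 values correlated with those of the 0h and ip libraries at an r of 0.01 to 0.025, against 0.757 to 0.989 among those 27 libraries. Sequences and positions are from RefSeq for GRCm38.p6, whose promoter table matched 2 of the 5 factors. Alternatives were pseudocounts of 0.1 and 5 TPM, quantile normalization, rescaling without Rn45s and Lars2, the title code as a covariate, a replicate block, no filter, array weights and leaving out each library; a library left alone in its group is assumed to vary like the other groups.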

Additional observations from a re-analysis of the deposited data

Results flagged for a closer look

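Batf at 20h moved in opposite directions between populations. Every IM library of 20h lay above every IM library of 0h, with a log2 difference of 2.52, and every iMo library of 20h lay above those of 0h, with 0.72, whereas every AM library of 20h lay below those of 0h, with -1.02. The difference between the populations was not tested, since Batf was chosen on these values. All 5 factors were looked at in AM at 0h, the only group with 4 libraries, and no library stood far from the others.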

How the results depend on the processing

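Differences of the 5 factors under settings other than leaving out a library numbered 360. Of these, 269 moved by less than the replicate spread and 22 took the other sign. Of 295 that left out a library, 285 and 23 did. Array weights and no filter were not part of these counts. For Batf3 in IM at 6h (-3.99) the log2 difference was -4.16 and -3.43 with pseudocounts of 0.1 and 5 TPM, -3.39 under quantile normalization, -3.80 rescaled, -3.62 with the title code and -3.26 with the replicate block; in iMo (-4.27) it was -3.59 with 5 TPM, -3.56 under quantile normalization and -3.57 with the block. Batf in iMo at 6h (1.26) was 1.92 under quantile normalization and 2.06 rescaled. Cebpd at 6h was -1.08 with the block in IM, and in iMo -1.51, -1.45, -1.53 and -1.50 under quantile normalization, rescaling, title code and block. Of the 15 relatives and partners, array weights called 3 in AM and 3 in IM at 6h, 8 in IM and 10 in iMo at 20h, 8 for iMo against AM and 3 for iMo against IM. Quantile normalization and rescaling each called 1 in AM and 1 in IM at 6h and 2 for iMo against IM, quantile normalization 6 in IM at 20h, and no filter 1 in IM at 6h. The title code left 3 and 1 in IM at 2 and 20h, 3, 1 and 2 in iMo at 2, 6 and 20h, and 2 for iMo against IM. The replicate block left 0 and 0 in IM at 2 and 20h, 0, 0 and 1 in iMo at 2, 6 and 20h, 4 for IM against AM and 2 for iMo against IM. Leaving out a library gave 3 to 5 in IM and 3 to 6 in iMo at 2h, 0 to 1 in IM at 6h, 0 to 1 in AM and 2 to 5 in iMo at 20h, 5 to 9 for IM against AM, 3 to 6 for iMo against AM and 0 to 1 for iMo against IM. Deviations from group means of same-named libraries correlated at 0.06 to 0.62 over 15 pairs of libraries without a letter (13 over 0.1) and at -0.21 to 0.50 over 47 pairs with a letter (15 over 0.1), so the numbers were not taken to pair samples. With the block, signs turned for Cebpd at 2h (0.98 in IM, 0.14 in iMo), Batf2 at 20h (0.67 in both) and Cebpe in iMo (-0.09 at 6h, -0.28 at 20h). With the title code or the block, 0h and ip are joined by a single AM library. Over all genes in IM at 2h, 714 of 4356 called were higher, against 1748 of 3819 under quantile normalization and 944 of 4424 rescaled; in iMo at 20h 660 of 1981 were, against 1227 of 2364 and 2174 of 2683. Each called relative or partner kept its sign under both scalings, but calls ended under quantile normalization for Fos in IM at 2h, for Ddit3 in iMo at 6 and 20h, for Fos in IM and iMo against AM and for Jun in iMo against IM, and after rescaling for the same and for Fos in iMo at 6h and Cebpg and Irf8 in iMo at 20h. Depth is unknown, and levels near 1 TPM, as of Cebpe and Batf2 in AM, are the least certain.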
